A study of Mus musculus with 36 samples.

Results

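The genes of the proteasome were taken as the 45 of the 19025 genes in the table whose symbol is Psma, Psmb, Psmc, Psmd or Psme followed by a number, and all 45 matched a RefSeq gene. The proteasome is the protease that removes most proteins tagged with ubiquitin from the cell. Its barrel, the 20S core, is a stack of rings of alpha and beta subunits, and 3 of the beta subunits cut protein. The 19S regulator caps the core: its ATPases unfold substrates and thread them into the barrel, and its non-ATPase subunits bind and remove ubiquitin. Other caps (the PA28 and PA200 activators) and the interferon-induced immunoproteasome subunits replace parts of this machine in some cells and states. In neurons the proteasome turns over synaptic proteins.

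The 45 genes comprise the 7 alpha and 7 beta subunits of the 20S core, the 6 ATPases and 11 non-ATPases of the 19S regulator, 3 immunoproteasome subunits (Psmb8, Psmb9, Psmb10), 2 tissue-specific core subunits (Psma8 of testis and Psmb11 of thymus), 3 chaperones that help to build the 19S base (Psmd5, Psmd9, Psmd10) and 4 activator genes (Psme1 to Psme4). Psme2b is a near-identical copy of Psme2, and Psmc3ip, a meiotic recombination factor, matches the name pattern without being a subunit. The 31 core and 19S subunits are called constitutive below.

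RNA was sequenced from brains of C57 mice aged 6 to 7 weeks. The libraries labelled KI came from mice with a knock-in at Maoa, the gene of monoamine oxidase A; the series title describes it as the synonymous change rs1137070 and states that it lowers Maoa transcription and translation. The libraries labelled WT came from wild-type mice. Tissue came from VTA, SN, STR, Nac, PFc and HP (as the labels write them), with 3 KI and 3 WT libraries a region and 36 in all, at 15145631 to 18863503 estimated counts each (in units of 1e6, 16.41 ± 0.691 in KI and 17.88 ± 0.470 in WT, SD, n = 18 each). The labels do not say that libraries came from separate animals, so p-values measure only how far these libraries scatter, which may be technical.

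Maoa itself was at 37.7 to 97.4 CPM in the KI libraries and 34 to 78 CPM in the WT libraries (counts per 1e6 counts of the library, TMM-normalised), and over summed regions it was not called (log2 fold change KI over WT 0.13, SE 0.0828, edgeR adjusted p = 0.431). Its RNA was thus not lower in KI, and these counts do not check the KI and WT labels. The region labels were checked with marker lists (mean log2(CPM + 1)), and 9 libraries carried markers of another region than their label. The striatal list was at 8.82 in KI HP 2, 7.24 in KI PFc 1, 8.86 in KI SN 2 and 8.18 in WT VTA 3, while it was at 3.69 in KI Nac 2, 4.44 in KI Nac 1 and 4.36 in WT Nac 2. The midbrain dopamine list was at 1.82 in KI SN 1, against 5.1 or more in the WT SN libraries, and at 3.65 in KI STR 3, against 1.94 or less in the other STR libraries. KI SN 3, which was kept, had both lists, at 6.13 (striatal) and 5.74 (dopamine). The STR libraries other than KI STR 3 were kept too. Their thalamus list was at 5.43 to 6.74, against 2.71 to 3.54 in the libraries labelled HP. Their choroid plexus list was at 7.53 to 8.20, against 2.58 to 4.87 in those labelled HP. The set without the 9 libraries thus still holds markers of other regions. Results are therefore given with and without these 9 libraries; in them, and in bulk tissue generally, fewer cells of a type and less RNA per cell cannot be told apart.

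Transcripts of the proteasome were abundant in every library: the 45 genes together took 0.612 to 0.877% of the summed TPM (the authors' transcript abundances, which account for gene length), with a median of 0.724%. The beta ring of the core was the highest group, with a median over its 7 genes of 330 TPM, led by Psmb7, the trypsin-like subunit, at 454 TPM and Psmb5, the chymotrypsin-like subunit, at 416 TPM. Psmb6, the caspase-like subunit, averaged 265 TPM. The alpha ring had a median of 202 TPM and a range from 155 TPM for Psma1 to 303 TPM for Psma2.

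Among the 19S ATPases the median was 217 TPM, and Psmc5 was the highest of all 45 genes at 466 TPM. The non-ATPases were lower, with a median of 133 TPM, between 59.3 TPM for Psmd11 and 216 TPM for the ubiquitin receptor Psmd4. The base chaperones had a median of 32.6 TPM. Of the activators, the PA28 alpha and beta genes Psme1 and Psme2 averaged 101 and 86.4 TPM, Psme3 (nuclear PA28 gamma) 90.0 TPM and Psme4 (PA200) 10.9 TPM.

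Immunoproteasome subunits were present at a small share of the subunits they replace. Psmb10 averaged 55.3 TPM, Psmb8 7.98 TPM and Psmb9 4.56 TPM. Psma8, at 0.502 TPM, and Psmb11, at 0.072 TPM, were close to the floor, and Psme2b was at 0.621 TPM. Reads of Psme2 and Psme2b could be divided between these copies in a way that is not known, so the values of Psme2b in particular are uncertain.

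**Figure D1:**
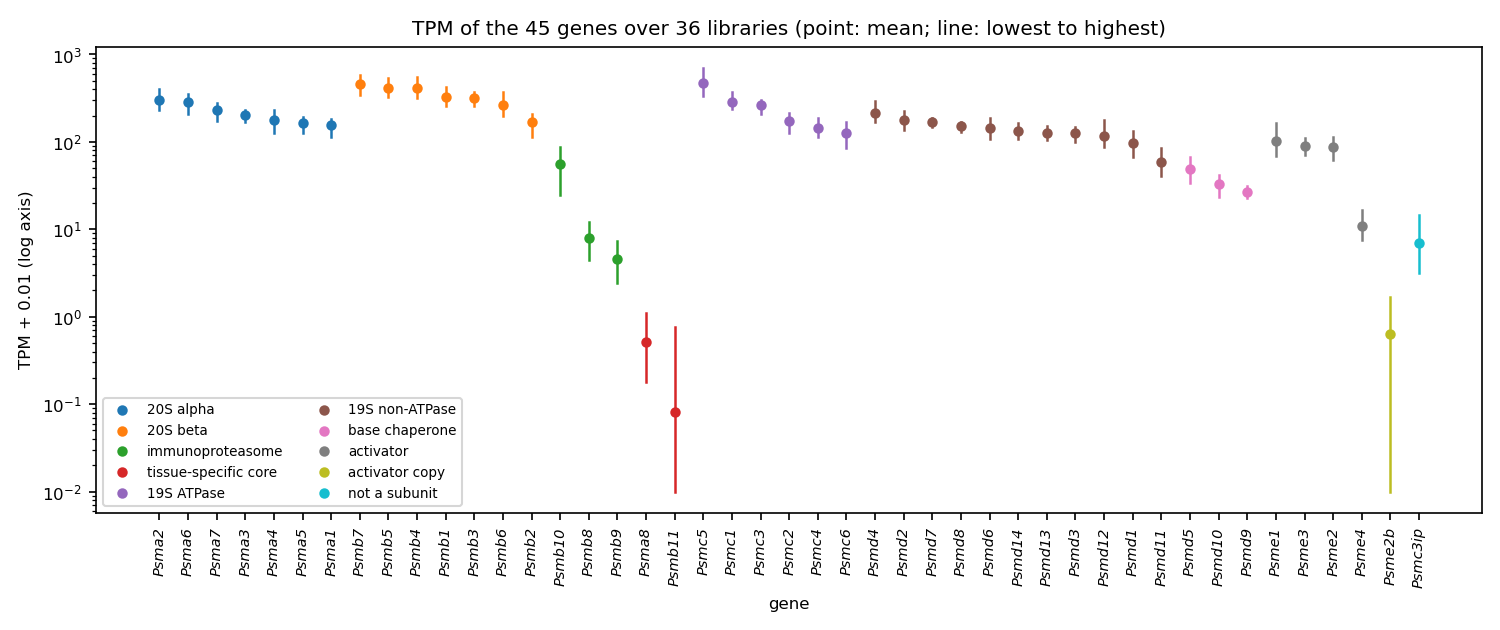
TPM + 0.01 on a log axis for each of the 45 genes, coloured by role; points are means over 36 libraries and lines run from the lowest to the highest library. The core and 19S subunits sit between 59.3 and 466 TPM on average, the immunoproteasome genes between 4.56 and 55.3 TPM, and Psma8 and Psmb11 below 1 TPM.

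The constitutive genes also varied less among libraries than all genes tested, a set not matched to them in expression level. The median SD within a group of 3 libraries was 0.197 on the log2 CPM scale for the 31 constitutive genes, against 0.285 for all 15367 genes tested over the 36 libraries. The range of the 12 group means had a median of 0.527 log2 units for these genes, against 0.880 for all genes. Averaged over the 31 genes, a library's deviation from the mean of all libraries ran from -0.297 in WT PFc 1 to 0.335 in WT VTA 2. In KI VTA the 3 libraries were at 0.232, 0.243 and 0.263, while WT VTA 3, with striatal markers, was at -0.184 and the other WT VTA libraries at 0.203 and 0.335.

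**Figure D2:**
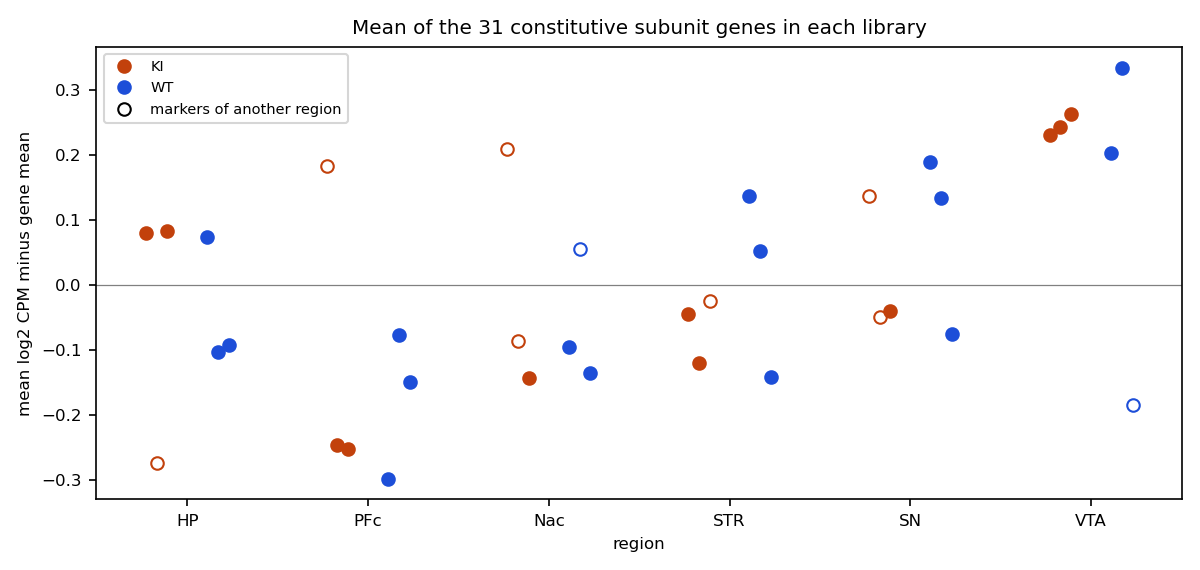
Mean over the 31 constitutive genes of log2 CPM minus the gene's mean over 36 libraries (y axis) for each library, by region (x axis), with KI left of WT; open circles mark the 9 libraries with markers of another region. The KI VTA libraries lie between 0.232 and 0.263, and 2 of 3 KI PFc libraries lie at -0.246 and -0.251 while the open circle KI PFc 1 is at 0.184.

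The main comparison asked whether the knock-in changed these transcripts in each region. No proteasome gene passed edgeR's quasi-likelihood test at an adjusted p of 0.05 in any region: 0 of 44 tested in VTA and 0 of 42 tested in each of the other regions, where 0% of all genes tested passed as well. The filter on low counts removed Psma8, Psmb11 and Psme2b in 5 regions and Psmb11 in VTA. The smallest adjusted p of a proteasome gene in edgeR was 0.210 in PFc (Psmb8), 0.245 in SN (Psmc3ip), 0.341 in HP (Psmb8), 0.390 in VTA (Psmd1), 0.444 in STR (Psmd3) and 1 in Nac. DESeq2 also called none of these genes, with 6.26% of all genes called in SN, 2.74% in PFc, 2.20% in HP, 1.38% in STR, 1.25% in VTA and 0.0112% in Nac. None had a q-value under 0.05 in the authors' deposited table, where the smallest was 0.114 for Psmd1 in PFc. There 934 of 17906 genes were under 0.05 in SN, 280 of 17641 in PFc and 200 of 17960 in STR. In HP it was 185 of 17660, in VTA 154 of 17953 and in Nac 2 of 17902.

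At an unadjusted p under 0.05, edgeR picked 4 proteasome genes in PFc, where 18.1% of all genes passed, and 1 each in HP, STR and SN, where 14.2%, 10.8% and 17.6% passed. It picked none in Nac (1.02% of all genes) or VTA (13.0%). The KI and WT libraries did not overlap for 5 proteasome genes in PFc, beside 28.5% of all genes, for 4 in HP (23.9%), 4 in VTA (23.4%), 4 in STR (17.7%), 2 in SN (23.9%) and 0 in Nac (4.19%). Proteasome genes were thus not separated by genotype more often than the background. Without the 9 libraries of other-region markers edgeR called 0 of them, while it called 5.72% of all genes in VTA, 3.85% in PFc, 0.420% in HP and 0% in the other regions. Nac and SN then have 1 KI library each, KI Nac 3 and KI SN 3, assumed to vary like the WT libraries, so the 0 there says little.

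By role, no group of subunits had a member that passed the test. The 7 beta genes had a higher KI mean in 7 of 7 cases in PFc, Nac and VTA, in 6 of 7 in HP, in 4 of 7 in SN and in 2 of 7 in STR. The 11 non-ATPases had a higher KI mean in 6 of 11 cases in Nac and VTA, 5 in PFc, 4 in SN, 2 in HP and 0 in STR. Over all tested proteasome genes the median log2 fold change was 0.134 in PFc, 0.121 in VTA, 0.042 in Nac, -0.006 in HP, -0.018 in SN and -0.043 in STR, while the median of all genes lay between -0.009 and 0.029. The PFc and VTA medians rest on single libraries: without KI PFc 1 the median in PFc was -0.009, without WT VTA 3 that in VTA was -0.004, and without KI HP 2 that in HP was 0.125.

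Gene length moved with these medians. By the ratio of count to TPM, 37 of the 45 genes belong to the shortest tertile of all genes. In PFc the median log2 fold change KI over WT was 0.238 over all genes of that tertile and -0.157 over the longest tertile. With each library corrected for its trend on length, the proteasome median in PFc was -0.122. The part of length in the PFc values was not tested further.

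**Figure D3:**
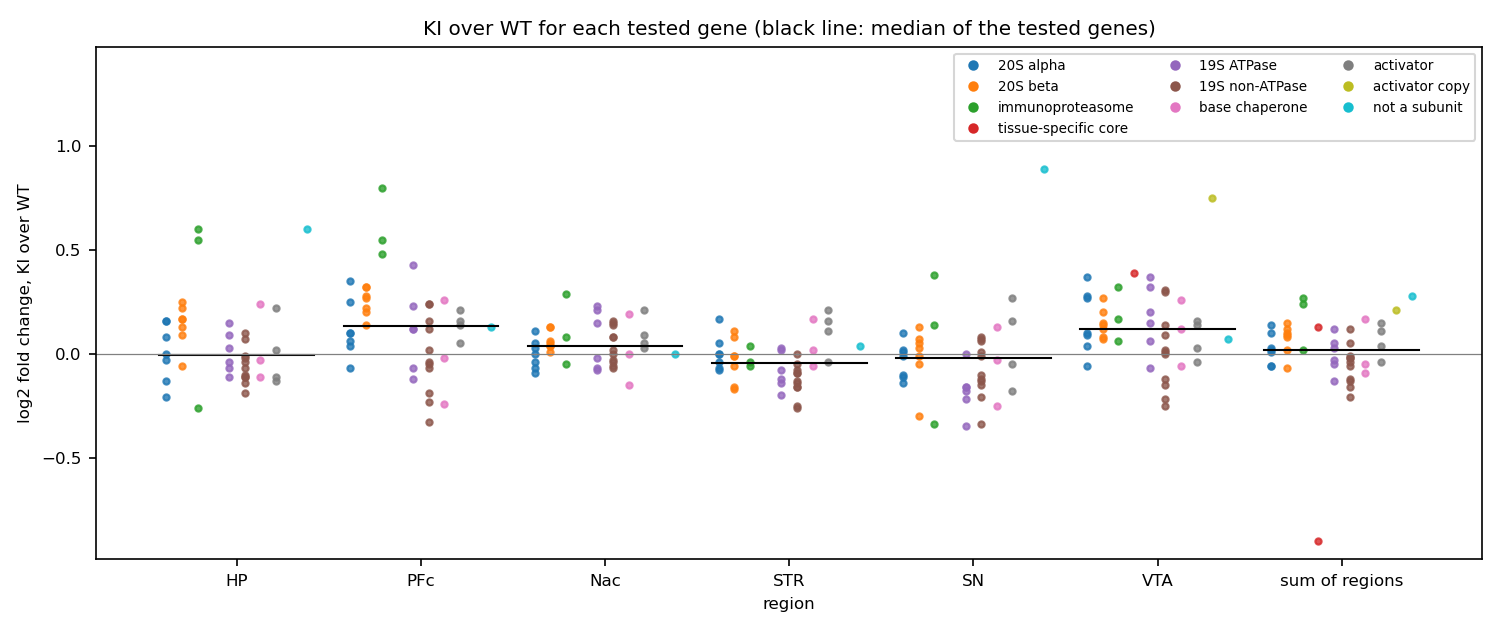
Log2 fold change KI over WT (y axis) of each tested proteasome gene in 6 regions and in counts summed over regions (x axis), coloured by role; black lines are medians over the tested genes. The medians lie between -0.043 and 0.134, and the green points of the immunoproteasome genes Psmb8 and Psmb9 stand at 0.60 and 0.55 in HP and at 0.80 and 0.55 in PFc.

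Of the immunoproteasome genes, Psmb8, the interferon-induced counterpart of Psmb5, had the largest difference. In PFc it had 5.37, 4.34 and 4.15 CPM in KI libraries, against 3.03, 2.17 and 2.83 CPM in WT libraries. Every KI library lay above every WT library (4.62 ± 0.653 and 2.67 ± 0.448 CPM, SD, n = 3 each; log2 fold change 0.80, SE 0.222, edgeR adjusted p = 0.210). Without KI PFc 1 the log2 fold change was 0.68, and with the length correction it was 0.53.

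In HP, Psmb8 had 3.03, 3.47 and 4.06 CPM in KI libraries and 2.55, 2.45 and 1.98 CPM in WT libraries. The groups again did not overlap (log2 fold change 0.60, SE 0.239, edgeR adjusted p = 0.341), and without KI HP 2 the log2 fold change was 0.62. Psmb9, the counterpart of Psmb6, had 1.17, 1.34 and 1.22 CPM in KI HP and 0.888, 0.758 and 0.904 CPM in WT HP (log2 fold change 0.55, SE 0.275, edgeR adjusted p = 0.404). As a share of Psmb5, Psmb8 was at 1.18, 2.22 and 1.40% of its TPM in KI HP and 0.999, 1.22 and 1.04% in WT HP. These groups overlapped, and the highest share was that of KI HP 2, with striatal markers; without it the KI HP mean was 1.29 ± 0.155% (SD, n = 2). In PFc the shares were 2.04, 2.60 and 2.51% in KI and 2.02, 1.19 and 1.82% in WT, with every KI library above every WT library.

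Psmb8 overlapped between genotypes in the other 4 regions; in SN it had 2.98, 5.08 and 6.55 CPM in KI libraries and 4.72, 5.01 and 3.53 CPM in WT libraries. Psmb10, the counterpart of Psmb7, overlapped between genotypes in all 6 regions. It had 52.9, 37.4 and 34.0 CPM in KI PFc and 26.4, 35.9 and 28.0 CPM in WT PFc.

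Markers of several cell types moved with Psmb8. All 10 genes of the microglial list had a higher KI mean in HP and in PFc, with median log2 fold changes of 0.60 and 0.71, and none of them was at 0 throughout. Their summed level was 644 to 665 CPM in KI HP and 365 to 488 CPM in WT HP, and 865 to 1037 CPM in KI PFc and 492 to 709 CPM in WT PFc. In Nac the list was also higher in 10 of 10 genes, with a median of 0.55, while Psmb8 had 6.13, 2.54 and 4.66 CPM in KI and 3.81, 2.89 and 4 CPM in WT. Of 13 tested genes of MHC class I presentation and the interferon response, 10 in HP and 11 in PFc had a higher KI mean, and edgeR called none. The 6 endothelial genes had a higher KI mean in 6 of 6 cases in both regions (medians 0.65 in HP and 0.61 in PFc), as did the 6 astrocyte genes (0.48 and 0.38). The 6 oligodendrocyte genes did so in 6 cases in HP (0.99) and 5 in PFc (0.52), and the 6 neuronal genes in 1 case in HP (-0.39) and 3 in PFc (0.00). EdgeR called none of these markers, beside 0% of all genes tested in HP and in PFc. The part of these cell types in the values of Psmb8 was not tested.

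Among the genes most like Psmb8 over the 36 libraries, by Spearman's rho of log2 CPM, were Rpl38 at 0.90, S100a13 at 0.89, and Fau and Rpl32 at 0.88. Rpl38, Fau and Rpl32 encode ribosomal proteins or their fusion. These libraries share depth and gene-length trends, so the values are a description only.

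**Figure D4:**
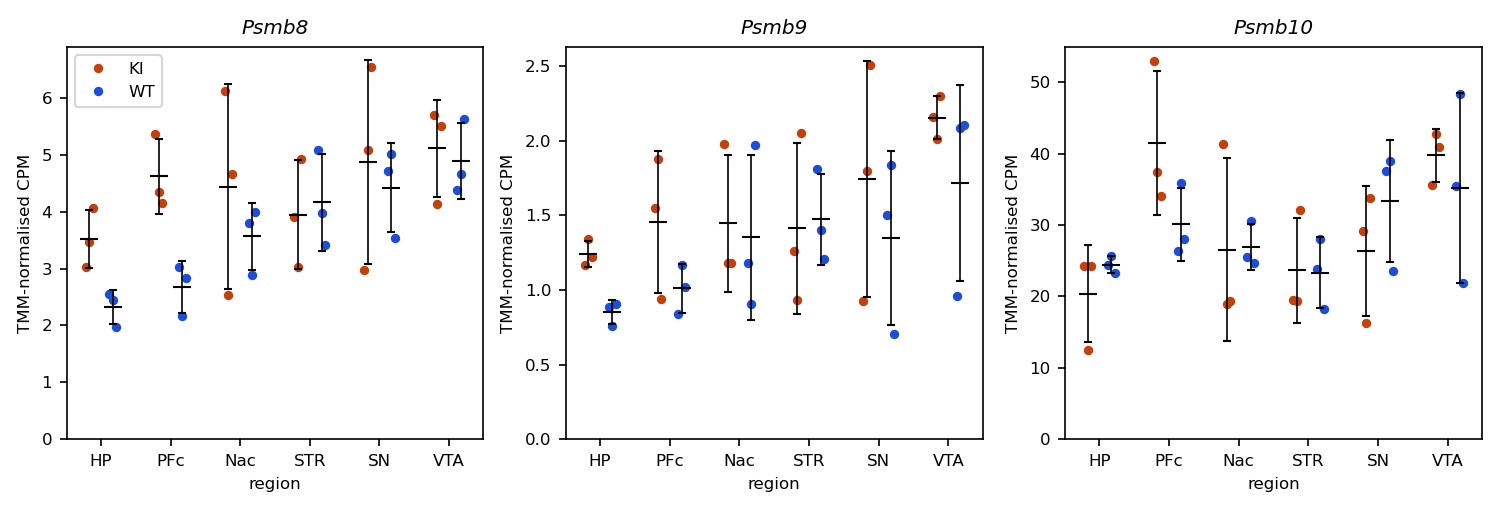
TMM-normalised CPM (y axis) of Psmb8, Psmb9 and Psmb10 in each library by region (x axis), KI left of WT; bars are mean and SD of 3 libraries. Psmb8 lies at 3.03 to 4.06 CPM in KI HP above 1.98 to 2.55 CPM in WT HP and at 4.15 to 5.37 CPM in KI PFc above 2.17 to 3.03 CPM in WT PFc, and the genotypes overlap in the other regions.

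Psmd1 and Psmd11, non-ATPases of the 19S regulator, had lower KI means. Both belong to the middle length tertile, whose median log2 fold change over all genes in PFc was 0.022. Psmd1, the largest scaffold of the 19S base, had 130, 118 and 126 CPM in KI PFc, against 162, 152 and 162 CPM in WT PFc. The groups did not overlap (125 ± 6.02 and 159 ± 5.72 CPM, SD, n = 3 each; log2 fold change -0.33, SE 0.107, edgeR adjusted p = 0.217), and without KI PFc 1 the edgeR adjusted p was 0.0586. In VTA it had 130, 131 and 135 CPM in KI and 173, 146 and 151 CPM in WT (log2 fold change -0.25, edgeR adjusted p = 0.390).

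Psmd11, a lid subunit, had 56.2, 57.8 and 55.2 CPM in KI PFc and 67.6, 63.9 and 69.2 CPM in WT PFc (log2 fold change -0.23, edgeR adjusted p = 0.288). In HP it had 64.6, 60.2 and 58.2 CPM in KI and 68.4, 70.4 and 70.7 CPM in WT. Psmd1 and Psmd11 both had the lower mean in KI in all 6 regions, with the smallest gaps in Nac (155 ± 17.7 CPM in KI and 159 ± 21.5 CPM in WT for Psmd1; 58.1 ± 8.86 CPM in KI and 60.2 ± 5.93 CPM in WT for Psmd11).

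Other members separated by genotype were fewer. In PFc the ATPase Psmc5 had 293, 225 and 234 CPM in KI and 169, 209 and 189 CPM in WT (log2 fold change 0.43, edgeR adjusted p = 0.226). The base scaffold Psmd2 was lower in KI PFc and KI STR, by log2 fold changes of -0.19 and -0.16. In STR the lid subunits Psmd3, Psmd8 and Psmd12 also had all KI libraries below all WT libraries, with log2 fold changes of -0.26, -0.25 and -0.09. In VTA the log2 fold changes were 0.30 for the lid subunit Psmd13, 0.27 for the alpha subunit Psma1 and -0.22 for Psmd3, and in HP 0.24 for the chaperone Psmd9. In SN they were -0.34 for Psmd12 and 0.89 for Psmc3ip, which is no subunit. The edgeR adjusted p of these values lay above 0.2 in each case. Without WT VTA 3 the log2 fold changes of Psma1 and Psmd13 in VTA were 0.13 and 0.18, and with KI SN 3 as the only KI library in SN that of Psmc3ip was 0.32, with this library assumed to vary like the WT libraries. With the length correction that of Psmc5 in PFc was 0.18.

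When counts of the 6 regions were summed per genotype and title number, edgeR called 0 of the 45 proteasome genes and 0% of all 16171 genes. Of the 45, 2 had an unadjusted p under 0.05, beside 19.9% of all genes. Psmd1 had 141, 141 and 129 CPM in the KI sums, against 159, 158 and 163 CPM in the WT sums (log2 fold change -0.21, SE 0.0614, edgeR adjusted p = 0.136). Psmd11 had 56.6, 56.9 and 52.3 CPM in the KI sums and 60.6, 63.7 and 63.7 CPM in the WT sums (log2 fold change -0.16, SE 0.0600, edgeR adjusted p = 0.196). All KI sums lay below all WT sums for 4 proteasome genes (Psmd1, Psmd11, Psmd2 and, by a log2 fold change of -0.04, Psme3) and above for 1 (Psmb9, 0.27), where 15.9% and 10.4% of all genes were so placed.

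The call on Psmd1 depended on the test. DESeq2 called it lower in the KI sums (log2 fold change -0.20, SE 0.0673, DESeq2 adjusted p = 0.0359), with 4.69% of all genes called lower and 4.18% higher. With single libraries and region as a term, edgeR called Psmd1 and Psmd11 lower (adjusted p = 0.0130 and 0.0219) and none higher, beside 4.55% and 4.92% of all genes. Without the 9 libraries of other-region markers, that fit called 5 proteasome genes lower, all of the 19S regulator: Psmd1 (-0.20), the ATPase Psmc2 (-0.19), Psmd3 (-0.17), Psmd11 (-0.14) and Psmd2 (-0.12). It called Psmb8 higher (0.32, edgeR adjusted p = 0.0430), while it called 9.45% of all genes lower and 10.6% higher. Psmd1, Psmd3, Psmd11 and Psmd2 belong to the middle length tertile and Psmc2 to the shortest. Over the sums, the median log2 fold change of all genes was 0.044 in that tertile, -0.012 in the middle and -0.048 in the longest. The part of length in these calls was not tested. Over the sums the microglial list had a higher KI mean in 10 of 10 genes (median log2 fold change 0.34), the endothelial list in 6 of 6 (0.37), the astrocyte list in 6 of 6 (0.32) and the oligodendrocyte list in 5 of 6 (0.31). EdgeR called none of these genes over the sums, beside 0% of all genes. The part of these cell types in the call on Psmb8 was not tested. This fit takes libraries of one number as independent, which the labels do not state.

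The genotype difference did not pass a test of change between regions for any of the 44 proteasome genes tested, nor for any other gene in edgeR (0%). At an unadjusted p under 0.05 edgeR picked 8.73% of all genes and none of these 44. DESeq2 called 0.174% of all genes. The 3 proteasome genes with the smallest p were Psmb8, Psma8 and Psmd8, with edgeR adjusted p of 0.619, 0.641 and 0.659.

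Levels by region were compared within each genotype. An F test in edgeR called 1 of 42 proteasome genes over the 18 KI libraries, Psmd12 (adjusted p = 0.0331), beside 12.6% of all genes, and 6 of 42 over the 18 WT libraries, beside 48.0%. The WT genes were Psmb8 (adjusted p = 0.00441), Psme2 (0.0211), Psmb6 (0.0253), Psmb2 (0.0299), Psmc5 (0.0343) and Psma6 (0.0462). Without WT Nac 2 and WT VTA 3 the F test in WT called 21 of 43, beside 70.0% of all genes. With the length correction it called 15 of 42 in WT, beside 49.6%. Without WT replicate 1, or without WT replicate 2, it called 0, with fewer libraries a region and the share of all genes not given. Over the 18 WT libraries, the largest edgeR adjusted p of this test were those of Psmd1, Psmd7, Psmc6 and Psmd2 (0.908, 0.787, 0.757 and 0.740). Psmd2 had 272, 261 and 230 CPM in WT VTA and 267, 260 and 265 CPM in WT PFc. Without WT Nac 2 and WT VTA 3, Psmc6 was among the genes called (edgeR adjusted p = 0.00966). Psmd1, Psmd7 and Psmd2 were not (0.683, 0.569 and 0.278).

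Outside the 9 libraries of other-region markers, the constitutive genes stood highest in VTA and lowest in PFc. Over all libraries the fits called few genes: in VTA against the other 5 regions, 9 of 42 proteasome genes were higher in KI and 1 of 42 in WT, beside 8.45% and 4.45% of all genes. In PFc, 0 of 42 were lower in KI and 3 of 42 in WT, beside 2.43% and 12.4%. Without the 9 libraries of other-region markers, 30 of 44 were higher in VTA in KI and 19 of 43 in WT, beside 29.0% and 19.6% of all genes, and 21 of 44 were lower in PFc in KI and 21 of 43 in WT, beside 17.8% and 21.4%. The genotypes do not share libraries: 19 genes were higher in VTA in both, and 17 were lower in PFc in both. For these and the later counts in both genotypes, the share of all genes called in both is not given. Without the 9 libraries, Nac and SN entered the KI fits with 1 library each, KI Nac 3 and KI SN 3. KI SN 3 had striatal markers too. The KI values against other regions rest in part on these single libraries.

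In VTA, without those libraries, all 7 alpha, all 7 beta and all 6 ATPase genes were called higher in KI, and 4, 5 and 5 of them in WT. Of the 11 non-ATPases 5 were called higher in KI and 2 in WT. With each library corrected for its trend on gene length, 1 alpha, 3 beta and 3 ATPase genes were called higher in KI, and 0, 2 and 2 in WT. Markers of other cell types were high in VTA as well: the oligodendrocyte list was called higher in 6 of 6 genes in both genotypes (median log2 fold change 1.38 in KI and 0.80 in WT), and the endothelial list in 5 of 6 in KI (0.55) and 3 of 6 in WT (0.47). Their part in the VTA values was not tested. The ATPase Psmc5 had 389, 377 and 400 CPM in KI VTA, against a lowest, median and highest of 193, 219 and 300 CPM in the 8 KI libraries of other regions (log2 fold change VTA over others 0.75, SE 0.0609, edgeR adjusted p = 5.45e-06). It had 333 and 390 CPM in WT VTA 1 and 2 and 160, 195 and 368 CPM as the lowest, median and highest of the 14 other WT libraries (log2 fold change 0.77, edgeR adjusted p = 0.000249). The KI VTA libraries stood above all others, and the WT VTA libraries overlapped WT SN 1 at 368 CPM.

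Psmb6 had 132, 142 and 149 CPM in KI VTA, against 80.1, 101 and 115 CPM (lowest, median and highest) in the 8 other KI libraries, with no overlap (log2 fold change 0.48, SE 0.0646, edgeR adjusted p = 0.000144). Its WT VTA libraries, at 132 and 161 CPM, stood above the 14 others, at 66 to 130 CPM. Psmb7 had 188, 199 and 206 CPM in KI VTA, against 125 to 166 CPM in the other KI libraries, and 206 and 217 CPM in WT VTA 1 and 2, against 118 to 201 CPM in the other WT libraries (log2 fold changes 0.46 and 0.43, edgeR adjusted p = 0.000109 and 0.00536).

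The other catalytic subunit, Psmb5, was less set apart. It had 143, 159 and 170 CPM in KI VTA and 104 to 183 CPM in the other KI libraries, where KI HP 1 and 3 at 163 and 183 CPM overlapped VTA (log2 fold change 0.30, edgeR adjusted p = 0.00366). In WT VTA it had 146 and 175 CPM and was not called (0.36, edgeR adjusted p = 0.0627). The PA28 genes Psme1 and Psme2 were called higher in VTA in both genotypes, with log2 fold changes of 0.42 and 0.38 in KI and 0.52 and 0.44 in WT, although the VTA libraries overlapped the others in each case. Under the length correction none of the 4 activators was called higher in VTA: Psme1 was at 0.08 in KI and 0.19 in WT (edgeR adjusted p = 0.431 and 0.128) and Psme2 at 0.02 and 0.09 (0.837 and 0.314).

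Psmb10 had 35.6, 42.7 and 40.9 CPM in KI VTA and a median of 24.2 CPM in the other KI libraries (log2 fold change 0.62, edgeR adjusted p = 4.91e-05), overlapping with KI PFc at 37.4 CPM. Psmd1, in contrast, had log2 fold changes of -0.08 in KI and 0.03 in WT, neither called, and Psme3 was lower in KI VTA (-0.16, edgeR adjusted p = 0.0246).

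In PFc 7 of 7 beta genes were called lower in KI and 6 of 7 in WT, with median log2 fold changes of -0.367 and -0.397. Under the length correction 2 of 7 were lower in KI, and 1 lower and 1 higher in WT, with medians of -0.160 and -0.024. The oligodendrocyte list was called lower in PFc in 6 of 6 genes in both genotypes (medians -2.05 in KI and -0.98 in WT), and its part was not tested. Psmb6 had 80.1 and 81.2 CPM in KI PFc 2 and 3, against 95.2 to 149 CPM in the 9 KI libraries of other regions (log2 fold change PFc over others -0.44, SE 0.0792, edgeR adjusted p = 0.00155), with no overlap. In WT PFc it had 66.0, 86.2 and 80.2 CPM, against 75.9 to 161 CPM in the 13 others, which overlapped (log2 fold change -0.52, SE 0.130, edgeR adjusted p = 0.00601). Psmb10 and Psme3 were higher in KI PFc (log2 fold changes 0.48 and 0.22, edgeR adjusted p = 0.00119 and 0.0166), and in WT theirs were 0.05 and 0.05, not called.

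The regional values moved with gene length over the whole transcriptome. In VTA, without the 9 libraries, the median log2 fold change against other regions over all genes of the shortest tertile was 0.262 in KI and 0.249 in WT, and that of the longest tertile -0.205 and -0.255. In PFc the shortest tertile was at -0.167 in KI and -0.281 in WT. With the length correction, 11 of 44 proteasome genes were higher and 5 lower in KI VTA, beside 25.9% and 25.9% of all genes, and 7 of 43 were higher and 2 lower in WT VTA, beside 19.5% and 17.8%. In PFc, 2 were higher and 8 lower in KI, beside 18.8% and 16.9%, and 6 were higher and 2 lower in WT, beside 20.4% and 18.3%. After this correction the share of proteasome genes called in VTA and PFc was thus close to or below that of all genes, and the median in VTA was 0.085 in KI and 0.073 in WT.

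**Figure D5:**
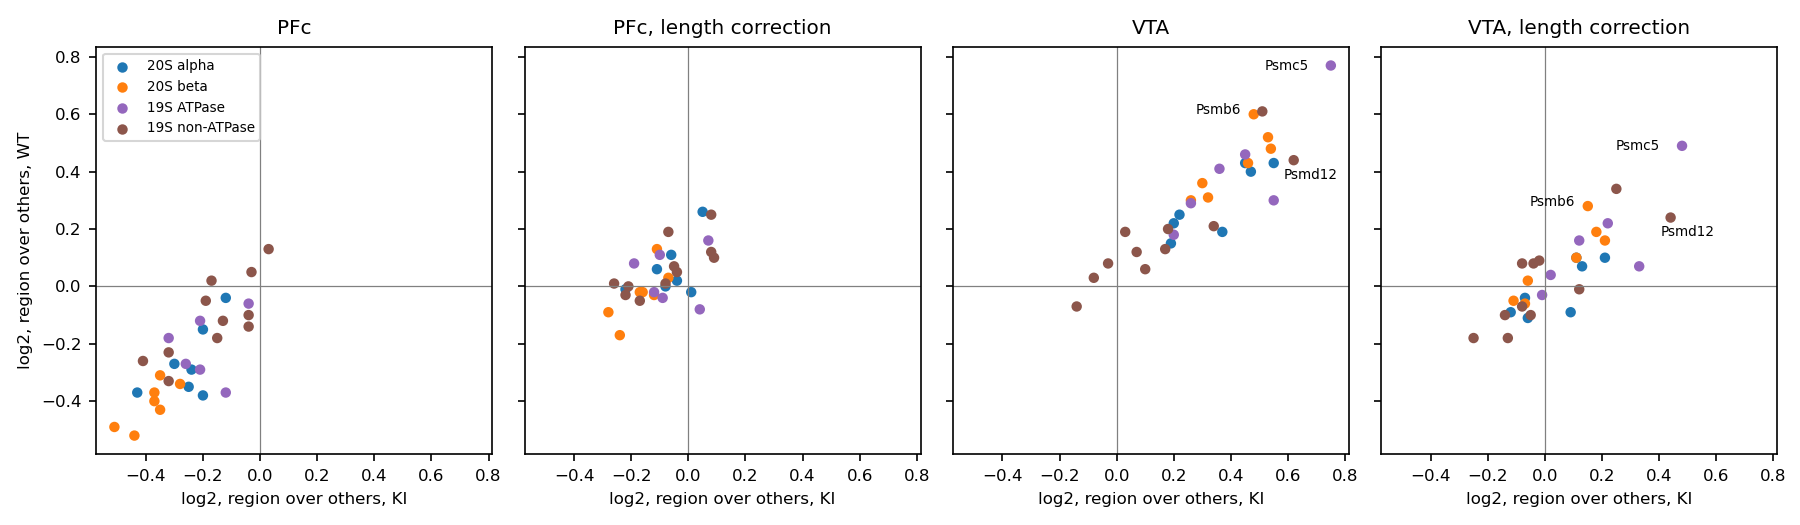
Log2 fold change of a region over the other 5 in KI (x axis) and in WT (y axis), without the 9 libraries of other-region markers, for the 31 constitutive genes, for PFc and VTA before and after the length correction. In VTA the genes lie up to 0.75 in KI and 0.77 in WT (Psmc5) before the correction and up to 0.48 and 0.49 after it. In PFc the cloud lies mostly below 0 before the correction. After it the PFc values lie around 0 in WT and still mostly below 0 in KI.

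Under the length correction 7 proteasome genes were called higher in VTA in both genotypes: Psmc5 (log2 fold change 0.48 in KI and 0.49 in WT), Psmb10 (0.34 and 0.35), Psmd12 (0.44 and 0.24), Psmd4 (0.25 and 0.34), Psmc1 (0.22 and 0.22), Psmb6 (0.15 and 0.28) and Psmb4 (0.18 and 0.19). Their edgeR adjusted p lay between 7.00e-05 and 0.0350 in KI and between 8.72e-05 and 0.0328 in WT. Psmd12, a lid subunit, had 132, 116 and 123 CPM in KI VTA and 68.9 to 88.9 CPM in the 8 other KI libraries. It had 117 and 114 CPM in WT VTA 1 and 2 and 70.9 to 113 CPM in the 14 other WT libraries, so that neither genotype overlapped. Psmd4 had 151, 176 and 157 CPM in KI VTA and 93.5 to 124 CPM in the other KI libraries.

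HP showed another pattern under the length correction. There 14 of 44 proteasome genes were called higher and 2 lower in KI, beside 21.8% and 18.7% of all genes, and 16 of 43 higher and 2 lower in WT, beside 25.7% and 22.8%, with 10 higher in both. Psmb5 had log2 fold changes HP over others of 0.54 in KI and 0.35 in WT (edgeR adjusted p = 0.000259 and 8.96e-05). The alpha subunits Psma1 (0.39 in KI and 0.29 in WT) and Psma4 (0.32 and 0.36), the lid subunit Psmd6 (0.37 and 0.38) and the lid deubiquitinase Psmd14 (0.36 and 0.27) were called too, while Psmc5 was lower (-0.36 and -0.34). Without the correction 12 of 44 were called higher in KI, beside 20.8%, and 2 of 43 in WT, beside 24.0%.

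The bases before the start are shown for the 4 of the 7 genes high in VTA that had the largest mean difference under the length correction, because these genes were high in the same region in both genotypes. They are RefSeq sequence of GRCm38.p6, read 5′ to 3′ on the gene's strand and ending at the base before the start, with motif matches in capitals. The windows are Psmc5 at chr11:106256085-106256184 (plus strand, 100 bases, since the rest of the window overlaps the gene Ftsj3), Psmb10 at chr8:105938393-105938642 (minus strand), Psmd12 at chr11:107479278-107479527 (plus strand) and Psmd4 at chr3:95042615-95042864 (minus strand).
Psmc5: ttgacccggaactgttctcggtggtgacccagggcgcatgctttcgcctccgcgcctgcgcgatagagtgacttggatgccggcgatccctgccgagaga
Psmb10: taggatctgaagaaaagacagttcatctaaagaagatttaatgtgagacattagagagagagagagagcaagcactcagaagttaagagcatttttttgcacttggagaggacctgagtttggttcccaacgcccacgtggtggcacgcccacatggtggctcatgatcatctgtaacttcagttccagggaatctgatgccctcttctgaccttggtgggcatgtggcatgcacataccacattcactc
Psmd12: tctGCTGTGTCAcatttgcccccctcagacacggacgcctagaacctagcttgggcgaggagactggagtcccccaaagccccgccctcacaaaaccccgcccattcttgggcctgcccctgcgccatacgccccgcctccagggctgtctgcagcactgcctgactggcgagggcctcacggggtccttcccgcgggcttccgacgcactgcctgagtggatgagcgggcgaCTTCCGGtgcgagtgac
Psmd4: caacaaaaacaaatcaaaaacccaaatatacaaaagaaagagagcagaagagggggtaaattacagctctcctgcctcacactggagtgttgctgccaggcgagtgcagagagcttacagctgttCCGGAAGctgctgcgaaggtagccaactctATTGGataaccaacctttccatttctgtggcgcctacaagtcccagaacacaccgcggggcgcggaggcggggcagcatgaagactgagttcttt
In Psmd12 the capitals mark TGACNNNGC and CCGGAAG, and in Psmd4 CCGGAAG and CCAAT, all on the opposite strand but the CCGGAAG of Psmd4. None of the 7 motifs searched was found in the printed bases of Psmc5 and Psmb10.

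The motifs were searched on both strands in the 250 bases before the start, in the 38 proteasome genes with a RefSeq promoter entry and in all 27025 genes that have one. CCGGAAG, the core of ETS factor sites, was in 12 of 38 proteasome genes (31.6%) and in 7.83% of all genes. The 12 include Psmc3ip, which is no subunit. All genes with an entry were not matched to the proteasome genes in expression level or base composition, and the part of these in the shares was not tested. TGACNNNGC, the core of the antioxidant response element bound by Nfe2l1 and Nfe2l2, was in 5 of 38 (13.2%: Psmb5, Psmb6, Psmc6, Psmd9 and Psmd12) and in 11.5% of all. CCAAT was in 39.5% and 37.5%, TATAAA in 10.5% and 14.3%, TGACTCA in 2.63% and 5.16%, the nuclear respiratory factor site in 2.63% and 0.877%, and TGACTCAGC, which contains TGACTCA and a match to TGACNNNGC, in 0% and 0.426%. A match here is a string of letters, not a bound site. Members without an entry were Psma8, Psmb1, Psmb2, Psmb7, Psmc3, Psmd3 and Psmd7.

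Genes that serve the proteasome were read from chosen lists. Between genotypes edgeR called none of the 7 assembly factors, 6 genes of ubiquitin and its activation, 5 of proteasome transcription control and 14 of MHC class I and interferon in any region. It called 0% of all genes tested in each region, so these lists do not differ from the background there. In VTA, without the 9 libraries, Pomp, which matures the core, was higher in KI (log2 fold change 0.62, edgeR adjusted p = 1.86e-05) and in WT (0.51, 0.00852). With the length correction its values were 0.23 (edgeR adjusted p = 0.0125) and 0.14 (0.0542). Of its list of 7 assembly factors, 3 were called higher and 1 lower in KI VTA, and 3 higher and 0 lower in WT VTA. The 19S-bound deubiquitinase Uchl5 was higher by 0.98 in KI and 0.68 in WT, and by 0.78 and 0.46 with the length correction (edgeR adjusted p at most 0.00105 with it). It belongs to a list of 11 other subunits and bound proteins, of which 2 were called higher and 3 lower in KI VTA (median 0.02), and 2 higher and 1 lower in WT VTA (0.11). Ddi2, the protease that activates Nfe2l1, had log2 fold changes of -0.98 and -0.88 (edgeR adjusted p at most 0.0495); with the length correction they were -0.92 (0.000856) and -0.80 (0.0588). Of its list of 5 genes of transcription control, 2 were called higher and 1 lower in KI VTA, and 0 higher and 1 lower in WT VTA. Of the MHC class I and interferon genes 10 of 14 were called higher in KI VTA and 7 of 14 in WT VTA, beside 29.0% and 19.6% of all genes, and 8 and 5 of 14 with the length correction, beside 25.9% and 19.5%; H2-D1 had log2 fold changes of 0.96 and 0.91.

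Of the 45 proteasome genes 21 have more than one listed transcript entry, and the 45 have 83 entries in all. Psmb6, Psmb8, Psmb9 and Psmd10 have entries that repeat the same RefSeq transcript at equal shares. The entries are thus not a count of distinct transcripts. The share of a transcript depends on how reads were divided among transcripts and is given without a test. For Psme2 the less abundant transcript took 14.0, 18.6 and 22.0% of the gene's counts in KI VTA and 28.9, 25.5 and 12.5% in WT VTA, the last in the library with striatal markers. In HP it took 9.37, 10.3 and 4.08% in KI and 8.67, 5.60 and 8.39% in WT. The less abundant transcript of Psmd4 stayed between 26.3 and 37.5% over the 36 libraries, while the shares of the 2 main Psme4 transcripts ran from 18.3 to 81.1%.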

How the data were processed

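The estimated counts and TPM per gene of 36 mouse brain libraries were made by the authors and deposited; the genome build is GRCm38.p6, per the submitters' processing notes, and which aligner, counter and strand setting were used is not given in the sources used here. Of the gene values, 9.88% were not whole numbers, so the deposited estimated counts were rounded. The authors' deposited table of comparisons gives log2 fold changes and q-values. Its p-value and q-value columns were only read, for the genes described and for the counts of all genes under a q-value of 0.05. In the files 180 further per-sample columns of these 36 libraries were not used.

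Counts were tested with edgeR 4.0.16 (TMM, filterByExpr, quasi-likelihood F test, Benjamini-Hochberg over all genes tested, threshold 0.05) in R 4.3.3, with DESeq2 1.42.0 as an alternative. KI was compared with WT in each region (n = 3 each) and in counts summed over regions per number. Regions were compared within each genotype, each against the mean of the other 5. CPM are TMM-normalised over 36 libraries, or over the sums. The length correction, chosen after seeing the data, used a lowess fit (span 0.3) per library on relative gene length (count over TPM) as an offset. The per-region contrasts in KI and those without the 9 libraries were also extended after seeing the data. The procedures were tested on simulated data with fold changes larger than those of the proteasome genes described. These data held no length trend and no libraries of other-region markers, so that test does not bear on either. Members and lists were chosen with earlier results of these data known; named genes were those called and, per comparison of genotypes, up to 4 each way whose libraries did not overlap, plus the catalytic, immunoproteasome and activator genes.

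No library pair held identical counts. Of 18 same-numbered KI and WT pairs, 2 had deviations correlated over 0.1, so the numbers were not taken to pair samples. Promoter sequences came from RefSeq.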

Additional observations from a re-analysis of the deposited data

How the results depend on the processing

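No proteasome gene was called between genotypes in any region under any alternative run, and with other scaling, no filter on low counts or DESeq2 the median log2 fold changes moved by less than the spread between libraries. Without the 9 libraries, Nac and SN have 1 KI library each, so the 0 there says little. In HP the median was 0.125 without KI HP 2, the library of other-region markers. In PFc it was -0.122 with the length correction. Leaving out 1 library at a time gave medians of -0.004 to 0.225 in VTA, -0.009 to 0.229 in PFc, -0.039 to 0.125 in HP, -0.073 to 0.104 in Nac, -0.090 to 0.025 in SN, -0.127 to 0.030 in STR and -0.030 to 0.079 over summed regions. With the replicate block, 0 members were called in the genotype comparisons and 8 by region in WT, and the medians were 0.130 in VTA, 0.116 in PFc, 0.022 in Nac, -0.013 in HP, -0.039 in SN, -0.043 in STR and 0.025 over sums; the numbers are not known to pair samples. Over summed regions 1 gene was called by DESeq2, 2 with region as a term and 6 with region as a term without the 9 libraries, where Psme3 was at 0.01 against -0.04. By region in WT the F test called 1 gene in the KI libraries, 15 with the length correction, 21 without the libraries of other-region markers and 0 to 8 without 1 replicate number. The share of all genes called with the replicate block or without 1 replicate number is not given. Without those libraries 21 genes were lower in PFc in KI and 21 in WT, and 30 were higher in VTA in KI and 19 in WT; in KI 2 were higher in PFc and 1 lower in VTA. Over all 18 KI libraries 0 were lower in PFc and 9 higher in VTA. With the length correction in WT, 6 were higher in PFc, 7 higher in VTA and 2 lower in VTA. The cause of these shifts was not tested. Psmb8, Psmb9, Psma8, Psmb11 and Psme2b had few counts, which limits the precision of their values.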
